A study of Mus musculus with 4 samples.

Results

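Oncostatin M and 9 other genes of the IL-6 cytokine family and its signalling chain were followed in bleomycin (BLM)-treated skin of WT and GSDMD KO mice. The 10 members were the rows of the deposited table named Osm, Il6, Lif, Osmr, Il6ra, Il31ra, Il11ra1, Il6st, Stat3 and Socs3, out of 24441 listed genes. They were picked as a pathway because Osm was already known to be strongly lower in the KO libraries, so every difference between KO and WT libraries in these 10 genes is given as a description, with no test. The study injected BLM, a cytotoxic antibiotic that scars the skin, subcutaneously into female mice every other day up to day 28, and sequenced the lesional skin. All 4 libraries came from BLM-treated C57BL/6 skin, with an age label of 8 weeks: 2 libraries were wild type (WT) and 2 carried GSDMD-/- (KO), a line made by Cas9 editing of C57BL/6 zygotes. Libraries of saline-treated skin were not analysed here, so the values compare genotypes within treated skin. No source used here says whether each library is a single mouse, so p-values measure only the spread between these samples, which may be technical.

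The IL-6 family cytokines signal through receptor complexes that share the subunit gp130, encoded by Il6st. Each ligand adds its own subunit: IL-6 uses IL-6 receptor alpha (Il6ra), oncostatin M uses the oncostatin M receptor (Osmr), LIF uses the LIF receptor (Lifr), IL-11 uses its own alpha chain (Il11ra1), and IL-31 signals through Il31ra paired with Osmr, without gp130. The complexes activate JAK kinases, which phosphorylate STAT3, and STAT3 induces Socs3, the feedback inhibitor of gp130. In skin, oncostatin M is made mainly by infiltrating leukocytes and acts on keratinocytes, fibroblasts and endothelial cells.

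The values are FPKM, fragments per kilobase of transcript, scaled to sequencing depth, and therefore comparable between genes of different length. They summed to 448544 to 462251 FPKM per library, and from the size of the step that 1 fragment makes in low genes the depth was estimated at a size of 12.8 to 17.5 M fragments. The targeted gene, Gsdmd, had 14.0 and 18.2 FPKM in WT, against 3.53 and 2.26 FPKM in KO. Both KO libraries stood apart in tissue markers. Against the WT mean, the summed level of 10 hair follicle genes was 6735% in KO replicate 1 and 257% in KO replicate 2. By the same measure, KO replicate 2 held 17.5% of 8 fibroblast genes, 9.38% of 7 endothelial genes and 4.43% of 6 adipocyte genes. Of 15 Y-linked genes, 4 were above 0 in KO replicate 2, with a summed level of 1.78 FPKM, and the remaining libraries had 0 such genes, in a study of female mice. The labelled tissue was borne out by Krt5 (764 to 1728 FPKM) and Krt14 (1215 to 2735 FPKM), keratins of the basal epidermis, and the biopsies also held skeletal muscle, with 3728 to 7681 FPKM of Acta1. Across the 13027 genes tested with limma, 0 (0.0%) passed an adjusted p under 0.05 with an absolute log2 fold change above 1, and at an unadjusted p under 0.05 there were 810 lower genes (6.22%) and 1420 higher genes (10.9%) in KO mice, 17.1% in all. The count of 0 became 1920 without KO replicate 1 and 31 without KO replicate 2.

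Among the member ligands, oncostatin M had the largest difference between the groups. Osm had 4.33 and 4.87 FPKM in WT, against 0.281 and 0.217 FPKM in KO, and the groups were far apart. The means were 4.60 ± 0.382 FPKM in WT and 0.249 ± 0.0457 FPKM in KO (SD, n = 2 each), an 18.5-fold ratio of means. On the log2(FPKM + 1) scale, which understates changes of low genes, the fold change was -2.16 (standard error 0.24). With the longest annotated transcript of 2272 bases, the values correspond to an estimated 173 and 158 fragments in WT and 8.78 and 6.28 fragments in KO, above the floor of 3 fragments. In bulk skin, fewer cells of a type and less RNA per cell cannot be told apart.

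Il6, the pyrogenic cytokine that names the family, was low in every library. It had 0.775 and 0.928 FPKM in WT, against 0.375 and 0.0865 FPKM in KO, the KO libraries again below the WT libraries. KO replicate 2 held an estimated 1.20 fragments of Il6, under the 3-fragment floor of 0.216 FPKM, so its level cannot be separated from 0 at this depth. Lif, leukemia inhibitory factor, lies next to Osm on chromosome 11, with 16.5 kb between the pair. It had 0.705 and 0.741 FPKM in WT, against 0.776 and 0.742 FPKM in KO. WT replicate 2 and KO replicate 2 differed in the third digit only, and the Lif log2 difference of 0.03 turned negative with upper-quartile scaling (-0.01) and with median-ratio scaling (-0.03).

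**Figure D1:**
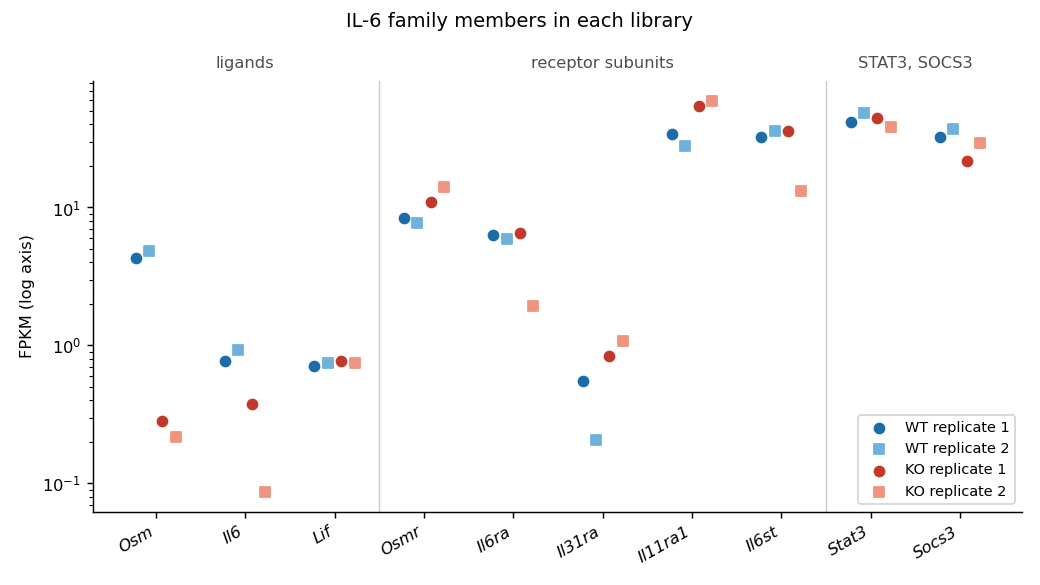
FPKM of the 10 members in each of the 4 libraries, on a log axis (circles, replicate 1; squares, replicate 2; blue, WT; red, KO). Osm stands at 4.33 and 4.87 FPKM in WT, against 0.281 and 0.217 FPKM in KO, Lif at 0.705 to 0.776 FPKM in all libraries, and Il6ra and Il6st are low in KO replicate 2 alone; the lowest Il6 point is under the floor of 3 fragments.

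As a ratio, the summed mRNA of the family's ligand genes differed far less between the groups than Osm did. Summed over 12 ligand and ligand-subunit genes, the libraries held 32.1 and 33.7 FPKM in WT, against 29.0 and 28.4 FPKM in KO. The 9 of these genes outside the members summed to 26.3 and 27.2 FPKM in WT, against 27.5 and 27.3 FPKM in KO. Osm made up 13.5% and 14.4% of this sum in WT, and 0.971% and 0.763% in KO. Ctf1, cardiotrophin 1, had 5.75 and 4.03 FPKM in WT, against 5.69 and 10.6 FPKM in KO, and Cntf, ciliary neurotrophic factor, had 8.12 and 6.33 FPKM in WT, against 6.57 and 2.22 FPKM in KO. Il31, the itch cytokine, was listed at 0 in all 4 libraries.

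**Figure D2:**
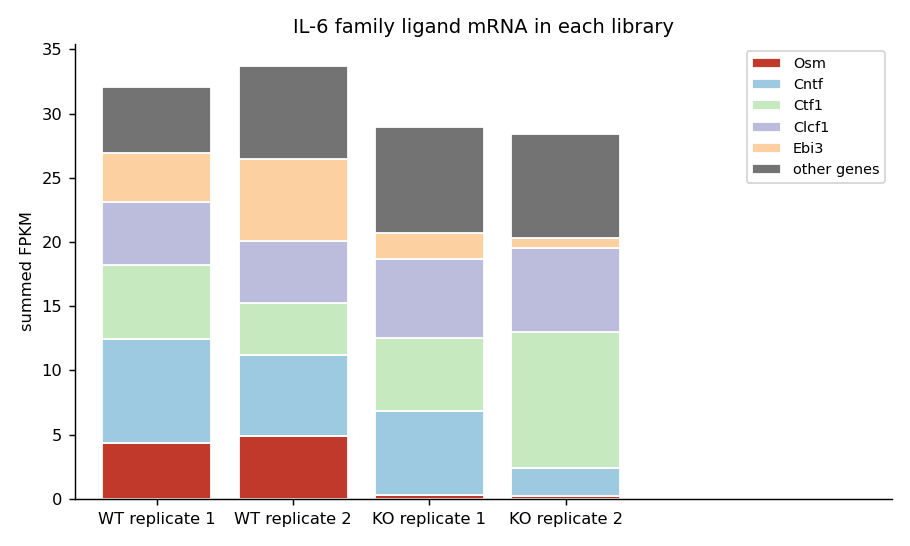
Summed FPKM of the 12 ligand and ligand-subunit genes in each library, stacked by gene, with the genes not named drawn as 1 block. Osm is the lowest block of each bar, 4.33 and 4.87 FPKM in WT, against 0.281 and 0.217 FPKM in KO, under sums of 28.4 to 33.7 FPKM.

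Leukocytes are the main source of oncostatin M in skin, and their marker lists differed in pattern: macrophage and neutrophil sums were lower in both KO libraries, T cell and mast cell sums in KO replicate 2 alone. As a percentage of the WT mean, Osm stood at 6.12% in KO replicate 1 and 4.71% in KO replicate 2. The summed level of 11 macrophage genes was 2080 and 2108 FPKM in WT, and 41.7% and 4.40% of the WT mean in KO replicates 1 and 2. All 11 of these genes had a lower mean log2 value in KO, as did 41.4% of all tested genes. Of the 11, 6 were lower at an unadjusted p under 0.05 (6.22% of all tested genes), and 0 were at 0 in a library. Mrc1 and Cd163 overlapped between the groups, and Cd163 was at 168% of the WT mean in KO replicate 1. Cd68 and Csf1r are among the genes that the study itself picked on these libraries, so their direction is not independent evidence. Lyz2 was the most abundant of the 11 macrophage genes, with 1260 and 1037 FPKM in WT, against 412 and 51.8 FPKM in KO. Of 10 neutrophil genes, 5 were tested and all 5 were lower, 3 of them at an unadjusted p under 0.05. The 10 genes summed to 34.1 and 43.5 FPKM in WT, against 26.8 and 22.0 FPKM in KO, or 69.1% and 56.7% of the WT mean, and Il1r2, a decoy receptor for IL-1, held most of the KO sums at 16.5 and 17.4 FPKM (19.0 and 18.5 FPKM in WT). Without Il1r2 the other 9 genes stood at 51.4% and 22.7% of the WT mean. The 5 untested genes were low and varied: Camp, a granule peptide gene, had 0.315 and 0.348 FPKM in WT, against 2.51 and 0.209 FPKM in KO, while Ly6g, a defining neutrophil antigen, had 0.238 and 0.0928 FPKM in WT, near the level of 3 fragments on 1 kb (0.171 and 0.210 FPKM), and was listed at 0 in both KO libraries. The 8 T cell genes in the table summed to 14.3 and 10.7 FPKM in WT, against 12.0 and 5.73 FPKM in KO, and of the 5 tested, 2 had a lower and 3 a higher mean log2 value in KO, with Cd2 lower at an unadjusted p under 0.05. The 7 mast cell genes summed to 76.2 and 85.6 FPKM in WT and stood at 132% and 15.6% of the WT mean in KO replicates 1 and 2. The part of these cell types in the Osm difference was not tested.

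**Figure D3:**
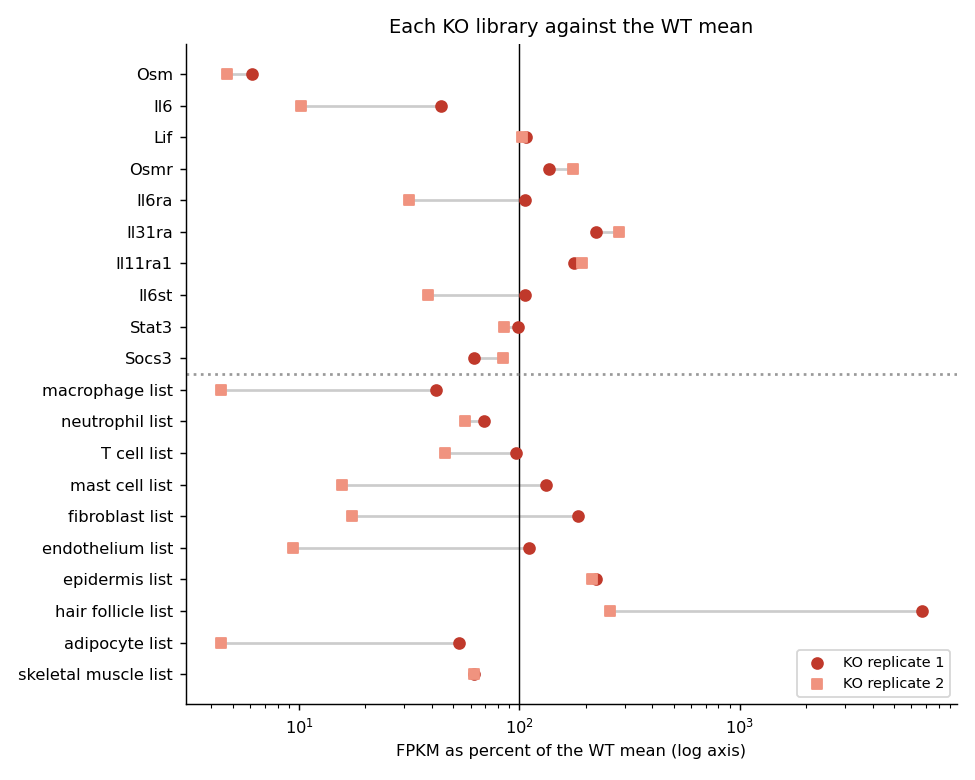
Level in KO replicate 1 (circles) and KO replicate 2 (squares) as a percentage of the WT mean, on a log axis, for the 10 members (above the dotted line) and for the summed FPKM of 10 marker lists (below it); the vertical line marks 100%. Osm is at 6.12% and 4.71% and the macrophage list at 41.7% and 4.40%. Osmr, Il31ra, Il11ra1 and, by little, Lif lie right of the line in both libraries. So do the epidermis list at 223% and 213% and the hair follicle list at 6735% and 257%.

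The tested genes most like Osm over the 4 libraries were looked up by the root mean square difference of log2(FPKM + 1) after each gene's own mean was taken off. The nearest gene was Gsdmd itself, at 0.16 log2 units, followed by Slc15a3 (0.21), Kcnn4 (0.23), Mcemp1 (0.23) and C130026I21Rik (0.23). Osm was chosen for its fall in KO and Gsdmd is the targeted gene, so genes lower in KO had to be near Osm. The pseudocount of 1 also draws low genes together: the ratio of means was 18.5-fold for Osm and 5.56-fold for Gsdmd. Over 4 libraries this likeness is a description only.

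Among the member receptor chains, Osmr, Il31ra and Il11ra1 had higher values in both KO libraries than in either WT library. Osmr, which serves oncostatin M and IL-31, had 8.46 and 7.72 FPKM in WT, against 11.0 and 14.1 FPKM in KO, and the groups did not overlap. The log2 difference was 0.57 (standard error 0.25), a ratio of means of 1.55. In WT skin Osm mRNA stood at 51.2% and 63.0% of Osmr mRNA, and in KO skin at 2.56% and 1.54%, a comparison of levels per transcript length.

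Il31ra, the ligand-binding chain for IL-31, lies 15.9 kb from Il6st on chromosome 13. It was low, with 0.548 and 0.206 FPKM in WT, against 0.836 and 1.07 FPKM in KO, and the KO libraries lay above the WT libraries. Il11ra1 was abundant, with 33.9 and 27.8 FPKM in WT, against 54.7 and 59.5 FPKM in KO, and the groups did not overlap. Its log2 fold change of 0.87 (standard error 0.24) corresponds to a ratio of means of 1.85. Il11ra1 has a close copy, Il11ra2, at 0.499 and 0.722 FPKM in WT, against 0.970 and 2.20 FPKM in KO, and fragments matching both could have been split by the counting. It also shares 8 exonic bases with Ccl27a on the opposite strand, which had 120 and 109 FPKM in WT, against 201 and 643 FPKM in KO. The strand setting of the counting is not given in the sources used here.

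The summed epidermis and hair follicle lists were higher in the same libraries as these receptors. The 10 hair follicle genes summed to 9.21 and 1.22 FPKM in WT and to 6735% and 257% of the WT mean in KO replicates 1 and 2. The 8 epidermis genes summed to 3051 and 2587 FPKM in WT and to 223% and 213% of the WT mean in KO replicates 1 and 2, and 7 of the 8 were higher at an unadjusted p under 0.05. Against the same WT mean, Osmr stood at 136% and 174%, Il11ra1 at 177% and 193% and Il31ra at 222% and 284%. The part of epidermal and hair follicle content in the receptor values was not tested.

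Il6ra and the shared subunit Il6st showed another pattern, with a gap inside the KO group. Il6ra had 6.33 and 5.89 FPKM in WT, against 6.48 and 1.93 FPKM in KO, and only KO replicate 2 was below the WT libraries. Il6st had 32.3 and 35.7 FPKM in WT, against 36.1 and 13.1 FPKM in KO, again with KO replicate 2 alone below WT. The log2 fold change was -0.60 for Il6ra (standard error 0.48) and -0.61 for Il6st (standard error 0.49), and without KO replicate 2 they were 0.07 and 0.09. In KO replicate 2, Il6ra was at 31.5% and Il6st at 38.5% of the WT mean, beside 17.5% for the fibroblast list, 9.38% for the endothelium list, 15.6% for the mast cell list and 4.40% for the macrophage list. In KO replicate 1 both genes were at 106% of the WT mean, beside 185% for the fibroblast list, 111% for the endothelium list, 132% for the mast cell list and 41.7% for the macrophage list. The part of these cell types in the values of KO replicate 2 was not tested.

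The other receptor chains of the family outside the 10 members were not called. Of 4 such genes, 2 passed the filter of at least 1 FPKM in at least 2 libraries. Lifr, which serves LIF and in part oncostatin M, had 5.71 and 4.30 FPKM in WT, against 6.12 and 9.19 FPKM in KO (adjusted p = 0.403 by limma). Cntfr, the CNTF receptor, had 3.37 and 2.21 FPKM in WT, against 9.21 and 2.20 FPKM in KO (adjusted p = 0.583 by limma). Il27ra, the IL-27 receptor chain, did not pass the filter, and its values of 1.02 and 0.609 FPKM in WT, against 0.442 and 0.119 FPKM in KO, were lower in both KO libraries.

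Downstream of the receptors, Stat3 varied little between the groups. It had 41.4 and 48.7 FPKM in WT, against 44.5 and 38.5 FPKM in KO, with overlapping groups and a log2 fold change of -0.12 (standard error 0.24). Stat3 shares 72 exonic bases with Stat5a on the opposite strand. Socs3 had 32.7 and 37.4 FPKM in WT, against 21.8 and 29.5 FPKM in KO, and the groups did not overlap. The log2 difference was -0.45 (standard error 0.26), with KO replicates 1 and 2 at 62.1% and 84.3% of the WT mean. The lower value was thus in KO replicate 1, unlike Il6ra and Il6st, for which it was in KO replicate 2.

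Upstream sequence was available for 9 of the 10 members in the RefSeq promoter table (build GRCm38.p6, which differs from the mm9 build of the expression table), and Osm had no entry. The 250 bases before each annotated start were searched on both strands, with overlaps between motifs allowed, for the palindromic STAT motif TTCNNNGAA, the AP-1 motif TGANTCA and an NF-kB motif of 10 letters. Of the 9 members, Socs3 and Il31ra held the STAT motif, Il6 and Lif the AP-1 motif and Il6 the NF-kB motif. Over all 32851 promoters of the same length these motifs were present in 7.02%, 6.75% and 0.356%. The promoters of Socs3 and Il31ra are shown because they are those with a STAT motif in the search, and that of Il6 because it is the one with the NF-kB motif. They run 5′ to 3′ toward the gene, with the matches in capitals (chr11:117969367-117969616, minus strand for Socs3; chr13:112580663-112580912, minus strand for Il31ra; chr5:30012864-30013113, plus strand for Il6).
Socs3: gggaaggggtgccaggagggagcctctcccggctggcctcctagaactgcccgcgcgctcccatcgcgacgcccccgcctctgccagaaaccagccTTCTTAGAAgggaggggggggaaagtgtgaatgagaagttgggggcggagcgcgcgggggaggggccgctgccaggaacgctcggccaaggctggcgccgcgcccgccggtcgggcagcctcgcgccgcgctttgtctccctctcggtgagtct
Il31ra: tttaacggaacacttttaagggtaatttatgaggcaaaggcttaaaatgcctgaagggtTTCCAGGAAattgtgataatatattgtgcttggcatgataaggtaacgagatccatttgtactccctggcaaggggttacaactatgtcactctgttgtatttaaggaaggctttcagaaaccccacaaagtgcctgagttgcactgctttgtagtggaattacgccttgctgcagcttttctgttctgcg
Il6: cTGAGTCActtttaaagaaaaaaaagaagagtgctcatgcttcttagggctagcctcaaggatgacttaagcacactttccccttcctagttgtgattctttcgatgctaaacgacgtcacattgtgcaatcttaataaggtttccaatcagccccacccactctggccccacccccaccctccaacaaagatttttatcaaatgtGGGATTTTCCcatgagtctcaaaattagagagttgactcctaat
In Socs3 the STAT match, TTCTTAGAA, lies 154 to 146 bases before the start, and in Il31ra the match TTCCAGGAA lies 191 to 183 bases before it. Beside these sequences, Socs3 had 25.6 FPKM in KO and 35.0 FPKM in WT on average, and Il31ra 0.953 and 0.377 FPKM. The Il6 promoter holds TGAGTCA 249 to 243 bases and GGGATTTTCC 44 to 35 bases before the annotated start. A match is a description of the letters and does not show that a factor binds there.

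The levels of the members, compared per transcript length, had a wide range. In WT, Stat3 was highest at 45.0 FPKM, followed by Socs3 (35.0 FPKM), Il6st (34.0 FPKM) and Il11ra1 (30.9 FPKM), whose ranges overlapped from one to the next. Osmr, Il6ra and Osm came next at 8.09, 6.11 and 4.60 FPKM, each with its range apart from its neighbour, and Il6, Lif and Il31ra were under 1 FPKM. In KO, Il11ra1 was first at 57.1 FPKM and Stat3 second at 41.5 FPKM, while Osm, seventh in WT, was ninth at 0.249 FPKM, where its range overlapped that of Il6. Over all 10 members, the KO libraries lay below both WT libraries in 3 (Osm, Il6, Socs3) and above both in 4 (Lif, Osmr, Il31ra, Il11ra1), and 3 overlapped. Of the 7 members among the tested genes, 2 lay below and 2 above. Among all 13027 tested genes these orders were found in 20.5% and 35.3%. The members were chosen on this contrast, and nothing is read from their count. Of the 10 members, 7 passed the filter on low values, and Osm passed it through its WT libraries alone.

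The other genes of the pathway, 75 in 7 lists, were examined in the fit across all genes. Of these, 65 were tested and 0 passed the adjusted threshold by limma. Without KO replicate 1, which leaves KO replicate 2 as the lone KO library, some of these genes passed it, as did many genes outside the pathway. Without KO replicate 2 none of the pathway genes passed. At an unadjusted p under 0.05, 11 of the 65 (16.9%, against 17.1% of all tested genes) passed: 8 were lower (12.3% of 65, against 6.22% of all tested genes) and 3 were higher (4.62%, against 10.9%). The median log2 fold change of the 65 genes was -0.16, beside 0.11 over all tested genes. The counts rested on single libraries: the 8 lower genes became 2 without WT replicate 2 and 20 without KO replicate 1, and the 3 higher genes became 1 without WT replicate 2 and 7 when either KO library was left out. Without WT replicate 2, the genes past the unadjusted threshold were Ccl2 and S100a8 (lower) and Cebpb (higher).

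Transducers and inhibitors lie between the receptors and the target genes. Of 10 JAK-STAT transducers, all tested, 0 passed even the unadjusted threshold. Jak1, the main kinase bound to gp130, had 24.5 and 20.9 FPKM in WT, against 22.5 and 18.9 FPKM in KO (log2 fold change -0.13, adjusted p = 0.791 by limma). Among 9 tested feedback inhibitors, 1 was past the unadjusted threshold: Socs5, with 6.04 and 4.85 FPKM in WT, against 8.89 and 15.0 FPKM in KO (log2 fold change 0.97, adjusted p = 0.264 by limma). Socs1, the nearest functional relative of Socs3, overlapped between groups, with 7.08 and 5.94 FPKM in WT, against 5.74 and 8.86 FPKM in KO.

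Of 18 genes known as STAT3 targets, all tested, 4 were lower and 1 was higher at an unadjusted p under 0.05, and their median log2 fold change was -0.17. Ccl2, the monocyte chemoattractant, had 82.6 and 59.2 FPKM in WT, against 21.7 and 20.7 FPKM in KO (log2 fold change -1.68, adjusted p = 0.248 by limma). Timp1, the metalloproteinase inhibitor that oncostatin M induces in fibroblasts, had 70.6 and 159 FPKM in WT, against 43.2 and 4.30 FPKM in KO (log2 fold change -2.80, adjusted p = 0.282 by limma). For Timp1 both KO libraries were below WT, and KO replicate 2 was far below KO replicate 1. The immediate early gene Fos had 16.5 and 28.7 FPKM in WT, against 8.23 and 10.4 FPKM in KO. Myc was the higher gene, with 9.21 and 8.54 FPKM in WT, against 13.5 and 30.9 FPKM in KO (log2 fold change 1.13, adjusted p = 0.282 by limma), but it missed the unadjusted threshold with upper-quartile or median-ratio scaling and with no filter on low values. Timp1, and Saa3 among the acute-phase genes, also missed it with no filter. Junb and Bcl3, a pair of other STAT3 targets, overlapped between the groups, with log2 fold changes of -0.09 and -0.18.

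The acute-phase genes had the lowest median of the 7 lists, a log2 fold change of -2.30 over 11 tested genes, of which 10 were lower and 1, Saa3, passed the unadjusted threshold. Saa3, serum amyloid A3, had 687 and 4598 FPKM in WT, against 375 and 23.4 FPKM in KO (log2 fold change -4.21, standard error 1.52, adjusted p = 0.276 by limma). The list's level varied widely within each group. It summed to 2202 and 10937 FPKM in WT, against 2251 and 223 FPKM in KO, so KO replicate 1 was level with WT replicate 1. The summed adipocyte list ran in the same order, with 469 and 1774 FPKM in WT, against 597 and 49.7 FPKM in KO, and its part in these values was not tested.

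Of 12 genes known to respond to oncostatin M in keratinocytes, 10 were tested, and 3 passed the unadjusted threshold. S100a8 had 440 and 287 FPKM in WT, against 151 and 107 FPKM in KO, and S100a9, its partner in calprotectin, had 312 and 322 FPKM in WT, against 153 and 41.0 FPKM in KO. Both are also abundant in neutrophils and monocytes. Krt17, a stress keratin, was higher, with 360 and 201 FPKM in WT, against 953 and 530 FPKM in KO (log2 fold change 1.40, adjusted p = 0.254 by limma). Krt10, a differentiation keratin that oncostatin M represses in culture, had 745 and 364 FPKM in WT, against 1670 and 266 FPKM in KO, on both sides of the WT values. Ccl2, of the STAT3 targets, is among the genes that the study itself picked on these libraries, so its direction is not independent evidence.

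Among the other ligand genes, 5 of 9 were tested, and Ebi3, the subunit shared by IL-27 and IL-35, was past the unadjusted threshold. It had 3.84 and 6.42 FPKM in WT, against 2.03 and 0.782 FPKM in KO, with the groups apart (log2 fold change -1.37, standard error 0.39, adjusted p = 0.248 by limma). Its partner Il27 was at 0 and 0.406 FPKM in WT, against 0 and 0.159 FPKM in KO. Clcf1, a cytokine that acts through the CNTF receptor, had 4.94 and 4.86 FPKM in WT, against 6.14 and 6.50 FPKM in KO (log2 fold change 0.31, adjusted p = 0.487 by limma).

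**Figure D4:**
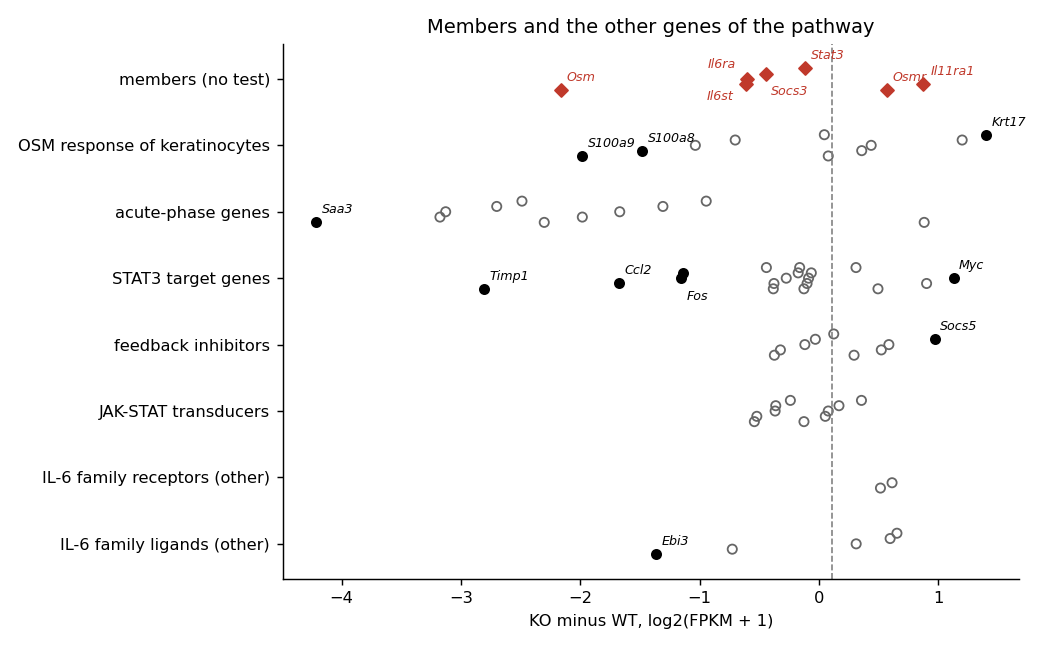
KO minus WT difference in log2(FPKM + 1) for the 7 members that passed the filter (red diamonds, not tested) and for the 65 tested genes of 7 pathway lists (filled, unadjusted p under 0.05, with names for most; open, not). The dashed line is the median of all tested genes, 0.11. The acute-phase list spreads furthest to the left, down to Saa3 at -4.21, and the JAK-STAT transducers hold 0 filled points.

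In the coordinates of mm9, Osm lies on chromosome 11 from 4136788 to 4141029 with 3 exons in its longest transcript, Lif from 4157571 to 4172517, Stat3 from 100748120 to 100800854 with 24 exons and Socs3 from 117827401 to 117830680 with 2 exons, all on chromosome 11. Il6 lies on chromosome 5 from 30339654 to 30346515, Il6ra on chromosome 3 from 89673246 to 89717118, Il11ra1 on chromosome 4 from 41707316 to 41716346 and Osmr on chromosome 15 from 6763577 to 6824313. Il6st and Il31ra lie on chromosome 13, from 113254278 to 113297068 and from 113313016 to 113370870.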

How the data were processed

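Per the paper's methods, reads were aligned to mm9 with HISAT2 (2.0.1) and counted with featureCounts; the submitters' processing notes also name StringTie (2.0.6), with no role given. The values deposited by the authors were described as counts but were FPKM, since 99.993% of those above 0 were not whole. A count model was therefore not used. Values were put on the log2(FPKM + 1) scale. A gene needed 1 FPKM or more in 2 or more libraries, which 13027 passed. Genotype alone was modelled in limma (version 3.58.1, R 4.3.3), using a mean-variance trend and Benjamini-Hochberg adjustment. The fit was tested on simulated data. Fragments were estimated from the FPKM step of 1 fragment in 2710 genes with a single GENCODE transcript of at least 2 kb; they are approximate and give no interval. The smallest two-sided p of an exact permutation test was 0.333 at this size. Members and gene lists were chosen with earlier results of these data known. The genes named were the members, Gsdmd, list genes (those at an unadjusted p under 0.05 first, then the most abundant) and the 5 genes nearest to Osm; some list genes with lower levels were named after their values were seen, and a few list genes are not reported here. Alternatives were other pseudocounts, filters and scalings, a fit without the trend, a replicate block and leaving out each library. Python 3.11.15 with pandas 2.3.3 wrote the tables.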

Additional observations from a re-analysis of the deposited data

How the results depend on the processing

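The log2 fold change of Osm was -3.76 with a pseudocount of 0.1 and -4.21 as the log2 ratio of mean FPKM (an alternative added after the data had been seen), and it lay between -2.23 and -2.09 when a library was left out. Scaling by median-ratio factors moved the median of all tested genes from 0.11 to -0.01 and the share of lower genes at an unadjusted p under 0.05 from 36.3% to 50.3%; with these factors Osm stood at -2.23, Osmr at 0.44, Il11ra1 at 0.74 and Socs3 at -0.58. Lif changed sign with both scalings, and Il6ra and Il6st did so without KO replicate 2. Leaving out single libraries gave 0 to 1920 genes past the adjusted threshold, 215 to 2026 lower and 278 to 1965 higher genes at an unadjusted p under 0.05, and among the pathway genes 2 to 20 lower and 1 to 7 higher ones; a lone library was then assumed to vary like the other group. Same-numbered libraries share only a number (correlation of their deviations -0.20), and with the replicate block 13 pathway genes were lower and 5 higher. With crossed pairs, an alternative added after the data had been seen, 16 were lower and 2 higher. The cause of these shifts was not tested. Filters and the trend left every count within 1.5 times its value. Depth limits the low members: Il6 rested on an estimated 1.20 to 14.8 fragments per library.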
